A study of Mus musculus with 2 samples.

Results

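The killing genes of cytotoxic lymphocytes were followed in single-cell RNA sequencing of mouse pancreatic tumors: 8 granzymes (Gzma, Gzmb, Gzmc, Gzmd, Gzme, Gzmf, Gzmg and Gzmk), perforin (Prf1) and Fas ligand (Fasl). These 10 members were chosen by gene symbol among the 32285 genes listed, and all 10 were found. Their unique molecular identifiers (UMIs, each standing for 1 captured RNA molecule) were summed over T barcodes, NK barcodes and all other barcodes of each library.

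Both libraries came from KPC tumors, in which a mouse pancreatic cancer line is injected with Matrigel under the pancreatic capsule of male mice. The flox library came from mice with floxed MCT1 alleles, whose Cre status is not given in the sources used here, and the other, labelled MCT1-KO, from Col1a2-CreERT2 MCT1-/- mice. In the latter a tamoxifen-inducible Cre, driven by the Col1a2 promoter, is meant to delete MCT1 in pancreatic stellate cells (PSCs). The promoter is also used by other collagen-producing fibroblasts. The age and strain of the mice sequenced are not stated, with 8 weeks given only for bought C57BL/6 mice, and the methods give tamoxifen at 40 mg/kg for 5 to 6 days. A figure legend instead gives tamoxifen or corn oil for 7 days and does not say which the flox mice received. Harvest is given as 14 days in the legend and as 2 to 3 weeks in the methods. Live tumor cells were not sorted, and how many animals entered a library is not stated in the sources used here. With 1 library per genotype no difference has a replicate check, so no p-value is given. Each 95% interval below covers counting error only.

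Granzymes are serine proteases stored in the secretory granules of cytotoxic T cells and NK cells. Perforin forms pores in the target cell through which granzymes enter. Granzyme B cleaves caspase substrates, granzyme A acts through other substrates, and Fas ligand kills through the Fas death receptor on the target. In mice, Gzmc, Gzmd, Gzme, Gzmf and Gzmg lie beside Gzmb in a gene cluster that humans have only in part. They appear late after T cell activation and are called the late granzymes here.

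Barcodes were kept with at least 500 UMIs, 200 to 5000 genes and a mitochondrial share of up to 8%, which left 8739 in flox and 11689 in MCT1-KO. A T barcode held at least 3 UMIs of Cd3e, Cd3d, Cd3g, Trac, Trbc1 and Trbc2 together, and an NK barcode at least 2 of 7 NK genes with more NK than T UMIs. This gave 507 and 430 T barcodes and 21 and 29 NK barcodes. CD8 T barcodes (those T barcodes that lacked Cd4 but held Cd8a or Cd8b1) numbered 343 and 224, with medians of 3448 and 3067 UMIs. CD4 T barcodes numbered 68 and 69, and T barcodes with neither co-receptor (double-negative) 86 and 134. No T or NK barcode was shared between the libraries, although 59 kept barcodes of other kinds were, and 18 and 22 barcodes lay exactly at the 3 UMIs of the T rule.

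Several features of the libraries moved with the genotype. Slc16a1, which encodes MCT1, was not lower in the fibroblast or PSC cluster of MCT1-KO (35.0 CPM, that is UMIs per 1e6 UMIs of the class, interval 28.8 to 42.2) than in that of flox (26.0 CPM, 19.7 to 33.7), so the former is called here by its label. These are 3' counts, and whether they fall outside the deleted part of the gene is not known. Macrophage marker UMIs stood in 80.8% of flox and 44.6% of MCT1-KO CD8 T barcodes, and acinar marker UMIs in 15.2% and 92.4%. At least 1 UMI of 8 macrophage, B cell or fibroblast genes (C1qa, C1qb, C1qc, Csf1r, Cd79a, Cd79b, Col1a1 and Col1a2) was found in 355 of 507 flox and 170 of 430 MCT1-KO T barcodes. The heat shock genes Hspa1a, Hspa1b, Hsph1, Dnajb1 and Hsp90aa1, which respond to stress, together stood at 2557 CPM in flox and 643 CPM in MCT1-KO CD8 T barcodes. The same order held in CD4 T (2483 and 595 CPM), NK (3037 and 904 CPM) and macrophage barcodes (2992 and 508 CPM). Both free RNA and doublets can give such foreign UMIs, and doublets were not called, so ratios are also given without these barcodes.

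The granzymes lie in 2 groups in the genome. By the GENCODE vM21 annotation of mouse build GRCm38, 6 members lie on the minus strand of chr14:56117626-56262260, a stretch of 145 kb. In order of position they are Gzme, Gzmd, Gzmg, Gzmf, Gzmc and Gzmb, each with 5 exons. Other genes between them were not looked up. Gzma (chr13:113093825-113100981) and Gzmk (chr13:113171608-113225908) form a second group of 6-exon genes on chromosome 13, also on the minus strand. Prf1 lies on the plus strand at chr10:61297833-61304680 and Fasl on the minus strand at chr1:161780689-161788495.

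The sequences before the starts of the 5 neighbours of Gzmb were set side by side, because these 5 genes lie in the same stretch as Gzmb and their UMIs are also given as 1 sum. The windows are from RefSeq (GRCm38.p6), are read 5′ to 3′ along the minus strand, and lie upstream of the annotated RefSeq start. Capitals mark an 8-base element at the same place in all 5, which in the form TGACGTCA is the cyclic AMP response element bound by CREB and ATF family factors.
Gzmc, chr14:56234683-56234762: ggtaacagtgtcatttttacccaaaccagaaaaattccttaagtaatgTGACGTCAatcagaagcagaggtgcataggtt
Gzmd, chr14:56132623-56132702: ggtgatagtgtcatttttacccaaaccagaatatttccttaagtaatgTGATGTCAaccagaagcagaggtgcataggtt
Gzme, chr14:56120656-56120735: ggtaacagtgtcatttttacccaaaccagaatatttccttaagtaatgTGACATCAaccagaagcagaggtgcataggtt
Gzmf, chr14:56211458-56211537: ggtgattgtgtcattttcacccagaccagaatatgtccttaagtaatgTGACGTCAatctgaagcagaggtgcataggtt
Gzmg, chr14:56159625-56159704: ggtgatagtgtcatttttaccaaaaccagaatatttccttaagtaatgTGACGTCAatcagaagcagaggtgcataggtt

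Over these 80 bases Gzmd, Gzme, Gzmf and Gzmg matched Gzmc at 74, 76, 71 and 75 positions. Counted from 1 at the element's 5′ end and with the Gzmc base first, Gzmd carried C4T and Gzme G5A, while Gzmf and Gzmg carried the Gzmc element. On either strand of the 250 bases before the start, TGACGTCA was present in 1.55% of 32851 promoters. Among the members it was found for Gzmc, Gzmf and Gzmg. The AP-1 element TGANTCA, present in 6.75% of promoters, was found for Gzmb only. The RUNX core TGTGGT, present in 14% of promoters, was found for 8 of the 10 members, all but Gzmk and Fasl. The STAT element TTCNNNGAA, present in 7.02%, was found for none. These are matches of letters, and the promoters of the 5 neighbours were 77.2 to 95.2% identical to each other, so their matches are not separate observations.

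The likeness of the copies also bears on the counts. In the last 500 bases of the longest coding transcript, where 3' reads fall, Gzmd and Gzme were 92.8% identical, while Gzmc was at most 61.2% identical to any of the other 4. No run of 100 bases there was shared with a transcript of another gene for any member. Of the runs of 50 bases, 20.6% in Gzmd, 18.2% in Gzme, 14.4% in Gzmg and 7.10% in Gzmf were shared with another granzyme. For Gzmd, Gzme and Gzmg the sharing genes included Gzmn, which is not a member and not in the sum. The split of reads among Gzmd, Gzme, Gzmf and Gzmg is therefore less certain than their sum, which may itself exchange reads with Gzmn.

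The members were found almost wholly in lymphocytes. Of 6494 member UMIs in kept barcodes, T and NK barcodes held 90.8% (90.1 to 91.5), that is 92.7% in flox and 88.7% in MCT1-KO. Of the 246 and 350 UMIs outside them, 67 and 194 were in barcodes that clustered with T cells but held too few marker UMIs. In the macrophage clusters, which should lack these genes, all 10 members together reached 2.26 and 1.32 CPM, against 1104 and 1127 CPM in T barcodes. All members but Gzmg were at least 2-fold higher in T barcodes than in barcodes that were neither T nor NK, in both libraries, as were 9.31% of 15458 genes. In NK barcodes all 6 members with at least 50 UMIs (Gzma, Gzmb, Gzmc, Gzmk, Prf1 and Fasl) were higher by this measure and none was lower, against 6.66% and 35.8% of 15311 genes. A Gzmb UMI was found in 0.270% and 0.0517% of macrophage barcodes, whose median depths (6293 and 4913 UMIs) were above those of the T barcodes.

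**Figure D1:**
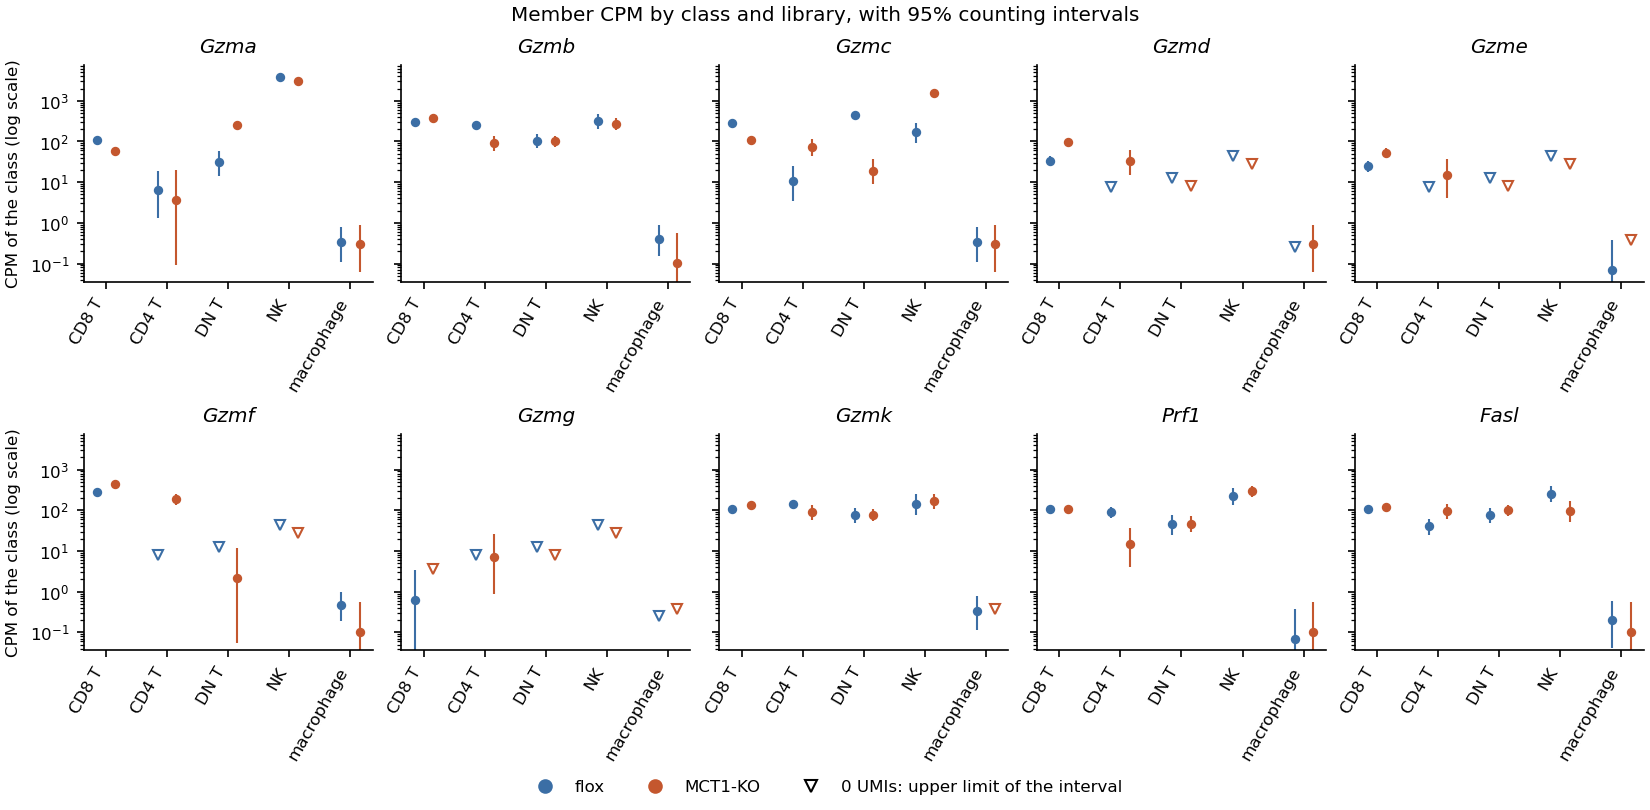
CPM of each member (log scale) in CD8 T, CD4 T, double-negative (DN) T, NK and macrophage barcodes of the flox (blue) and MCT1-KO (orange) libraries, with 95% counting intervals as bars and open triangles at the upper limit where no UMI was counted. Gzma stood highest in NK barcodes (3836 and 3115 CPM), Gzmd, Gzme and Gzmf were counted in T but not in NK barcodes, and the macrophage points lie far below the T points for every member but Gzmg, which had 1 and 2 UMIs in all T barcodes.

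Gzma was the NK gene of the set. NK barcodes, only 21 and 29 in number, held 56.4% and 57.4% of its UMIs. Gzma reached 3836 CPM (3425 to 4282) in flox NK and 3115 CPM (2823 to 3428) in MCT1-KO NK barcodes, against 109 and 57.0 CPM in CD8 T barcodes. NK was thus 35.2-fold (29.2 to 42.5) and 54.6-fold (41.5 to 73.0) above CD8 T. Among NK, CD8 T, CD4 T and double-negative T barcodes, Gzma was lowest in CD4 T, with 3 and 1 UMIs in all. Among double-negative T barcodes it was low in flox (9 UMIs) and higher in MCT1-KO (116 UMIs), but there 5 of 134 barcodes held 99.1% of them. Gzmc showed the reverse in these barcodes, with 130 UMIs in flox, 129 of them in 1 barcode, and 9 in MCT1-KO.

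Prf1 was also at least 2-fold above CD8 T in the NK barcodes of both libraries. It stood at 230 and 299 CPM in NK against 110 and 105 CPM in CD8 T barcodes, a 2.08-fold (1.23 to 3.35) and a 2.83-fold (1.92 to 4.11) difference. The flox difference rests on 19 NK UMIs. Without the richest barcode of each class, flox Prf1 was at 213 against 107 CPM, just under 2-fold. Over all 6456 genes with at least 50 UMIs in these classes, 2.12% were at least 2-fold higher in NK than in CD8 T barcodes in both libraries and 5.41% were at least 2-fold lower. Gzma and Prf1 were the members that were higher in both, Prf1 only with the richest barcodes kept. Gzmf had no NK UMI, reached 50 UMIs through CD8 T alone and is not counted here as a call. Gzmd and Gzme had no NK UMI, but their flox CD8 T levels were too low to show a 2-fold difference. Fasl passed only in flox, with 254 against 109 CPM, while in MCT1-KO it stood at 97.1 against 119 CPM. Gzmc passed only in MCT1-KO, with 1561 against 111 CPM, and stood at 169 against 289 CPM in flox. Gzmk, at 145 and 172 CPM in NK against 105 and 134 CPM in CD8 T, had ratios whose intervals spanned 1, and neither it nor Gzmb was past 2-fold in either library.

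Within T barcodes, CD8 and CD4 were compared next. Gzma was 17.2-fold (5.79 to 84.3) higher in CD8 T than in CD4 T barcodes in flox and 15.6-fold (2.70 to 628) in MCT1-KO. The MCT1-KO count in CD4 T lay under the floor of 3 UMIs used below, so the size of that ratio is uncertain. Over both libraries Gzma was found in only 33 of 567 CD8 T and 3 of 137 CD4 T barcodes. Barcodes were also thinned at random to 1000 UMIs. The flox shares were then 2.96% (1.43 to 5.37) in CD8 T and 1.47% (0.037 to 7.92) in CD4 T. Those of MCT1-KO were 5.07% (2.56 to 8.89) and 1.47% (0.037 to 7.92), so the intervals overlapped in both libraries. Both ratios thus rest on few barcodes, and Gzma is not counted here as a call. Gzmd, Gzme and Gzmf were past 2-fold in MCT1-KO and had no UMI in flox CD4 T barcodes. Few barcodes held most of their flox CD8 T UMIs: 25, 14 and 13 of 53 for Gzmd, 14, 12 and 10 of 40 for Gzme, and 210 and 206 of 451 for Gzmf. With genes held by so few barcodes, a count of 0 in 68 CD4 T barcodes shows no difference, so these genes are not counted here as calls. Of all 7063 genes so compared, 0.963% were higher in CD8 T and 0.453% lower in both libraries. Gzmb was close in flox (307 against 251 CPM) and 4.12-fold higher in CD8 T in MCT1-KO (376 against 91.2 CPM), and Prf1 followed the same order (1.24-fold and 7.22-fold). Gzmk, at 105 and 134 CPM in CD8 T against 141 and 91.2 CPM in CD4 T, had no constant order.

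Of the late granzymes, Gzmd, Gzme and Gzmf were counted in T barcodes and not in NK barcodes. In NK, 0 of 21 and 0 of 29 barcodes allow shares with a UMI of up to 14.3% and 10.3% (3 counts of the total). Gzmf stood at 279 CPM (254 to 306) in flox and 451 CPM (411 to 493) in MCT1-KO CD8 T barcodes. This is 7.70-fold and 20.1-fold above an NK floor of 3 UMIs per library, but that floor ignores that UMIs gather in few barcodes. Over both libraries Gzmf was found in only 40 of 567 CD8 T barcodes. A count of 0 in 21 and 29 NK barcodes therefore does not show a difference. In flox 2 barcodes with 210 and 206 UMIs held most of the 451 CD8 T UMIs. The CD8 T level there was 153 CPM without the richest, and 17.3 CPM, under the NK floor, without barcodes holding foreign markers. For Gzmd and Gzme the flox CD8 T level itself lay under that floor of 36.3 CPM. In MCT1-KO their CD8 T levels were 4.23-fold and 2.33-fold above the NK floor of 22.4 CPM. They were found in only 11 and 10 of 567 CD8 T barcodes, so a count of 0 in 29 NK barcodes shows no difference. Gzmg was practically not detected, with 1 and 2 UMIs in all T barcodes. Gzmc did not follow its neighbours: it was counted in NK barcodes of both libraries. In MCT1-KO 12 NK barcodes held 209 of its UMIs. In flox only 2 NK barcodes held 14, and both carried foreign markers.

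Gzmb, Gzmk, Prf1 and Fasl were spread over many barcodes, and Gzma and the late granzymes over few. In CD8 T barcodes Gzmb was found in 114 of 343 (33.2%, 28.3 to 38.5) in flox and 89 of 224 (39.7%, 33.3 to 46.5) in MCT1-KO. Gzmk was found in 32.4% and 32.6%, Prf1 in 25.1% and 29.9%, and Fasl in 35.9% and 34.8%. The 5 barcodes richest in each gene held between 10.2% (Fasl) and 33.1% (Prf1) of the UMIs of these 4 genes in flox, and between 16.3% (Fasl) and 32.9% (Gzmb) in MCT1-KO.

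For the other granzymes a single barcode could carry the class. In flox CD8 T barcodes 290 of 466 Gzmc UMIs came from 1 barcode, and 5 barcodes held 98.1%. The 2 richest barcodes held 210 and 206 of the 451 Gzmf UMIs. The barcode with the most member UMIs in flox had 561 of them, 4.76% of its 11777 UMIs, with 290 of Gzmc, 206 of Gzmf, 28 of Gzmb, 14 of Gzmd and 12 of Gzme. It also held 80 T marker UMIs and 2 macrophage UMIs. In MCT1-KO the richest barcode had 132 member UMIs, 76 of them Gzmf, and the second, an NK barcode, had 124, with 111 of Gzmc.

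**Figure D2:**
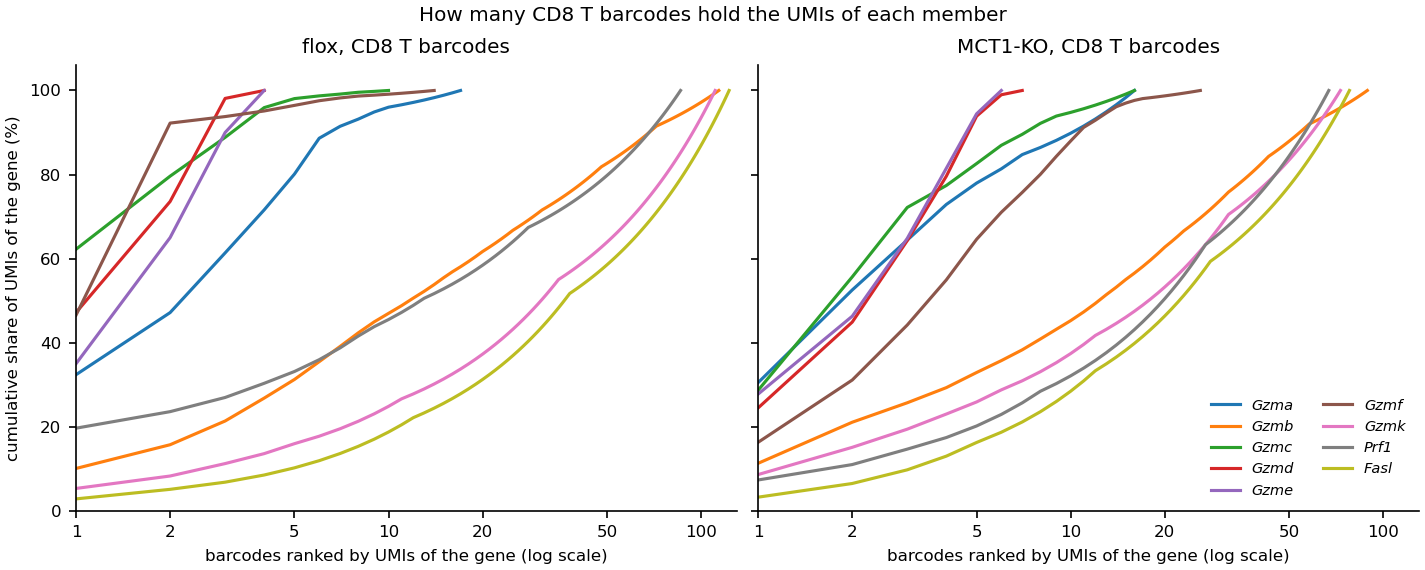
Cumulative share of each gene's UMIs (%) over CD8 T barcodes ranked by UMIs of that gene (log scale), for flox and MCT1-KO; Gzmg is left out. The curves of Gzma, Gzmc, Gzmd, Gzme and Gzmf rise within a few barcodes, and that of Gzmc in flox starts highest (62.2% in 1 barcode), and those of Gzmb, Gzmk, Prf1 and Fasl rise over far more barcodes.

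Comparing the genotypes in CD8 T barcodes asks whether the killing genes of tumor-infiltrating T cells differ when stellate cells are meant to lack MCT1. Gzmb stood at 307 CPM (281 to 336) in flox and 376 CPM (340 to 415) in MCT1-KO, a ratio of MCT1-KO over flox of 1.22 (1.07 to 1.40). Gzmk was 105 against 134 CPM (ratio 1.28, 1.02 to 1.62). Prf1, at 110 against 105 CPM (0.96, 0.75 to 1.22), and Fasl, at 109 against 119 CPM (1.09, 0.86 to 1.38), had intervals that span 1.

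The granzymes held by few barcodes moved further, and in both directions. Gzmd was at 32.8 against 94.8 CPM (ratio 2.89, 2.05 to 4.11), Gzme at 24.8 against 52.2 CPM (2.11, 1.37 to 3.25) and Gzmf at 279 against 451 CPM (1.61, 1.41 to 1.84). Gzma was at 109 against 57.0 CPM (0.52, 0.38 to 0.71) and Gzmc at 289 against 111 CPM (0.39, 0.31 to 0.47). Of the 9 members with at least 50 UMIs, Gzmd and Gzme were thus higher and Gzmc lower by 2-fold or more. Gzme reached 50 UMIs through MCT1-KO alone and is not counted here as a call. Of all 6174 genes so counted, 1.43% were 2-fold higher and 3.61% 2-fold lower. The median ratio was 1.22 over the 9 members and 0.98 over all genes. The 10 members together stood at 1367 and 1501 CPM, a ratio of 1.10 (1.03 to 1.17). Over all T barcodes Gzmd, Gzme and Gzmc were again the members past 2-fold, against 2.33% of 7864 genes higher and 3.74% lower, and the sum was at 1.02 (0.96 to 1.08). There too Gzme reached 50 UMIs through MCT1-KO alone.

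These ratios rest on few barcodes and on how foreign RNA is handled. Without the richest barcode of each library the Gzmc ratio became 0.85 (0.66 to 1.10), Gzmf 2.49 (2.11 to 2.93) and the sum 1.35 (1.25 to 1.45), while Gzmb stayed at 1.27 (1.11 to 1.46) and Gzmd at 3.32 (2.25 to 4.99). Without the barcodes that held a UMI of the 8 macrophage, B cell or fibroblast genes, which removed 242 of 343 flox and 94 of 224 MCT1-KO CD8 T barcodes, Gzmb was 233 against 426 CPM (1.83, 1.40 to 2.41), Gzmf 17.3 against 259 CPM (interval of the ratio 6.67 to 41.8) and Gzmc 0 against 54 UMIs. Prf1 (1.68, 1.09 to 2.64) and Fasl (1.49, 1.01 to 2.22) were then above 1, and Gzmk was at 1.01 (0.70 to 1.47). When free RNA was subtracted at the level set by acinar genes, estimated at 53.3% of UMIs in flox and 13.8% in MCT1-KO CD8 T barcodes, the directions of Gzmb (0.67), Gzmf (0.88), Gzmk (0.71) and the sum (0.60) turned, and Prf1 stood at 0.52 and Fasl at 0.59. Gzmd, at 1.57, and Gzme, at 1.15, were then no longer past 2-fold. Set by macrophage genes, the estimates were 59.3% and 48.7%, and the ratio was 0.98 for Gzmb, 2.27 for Gzmd and 1.68 for Gzme. The flox acinar estimate came from 204 UMIs. The direction of the Gzmb difference between the libraries therefore depends on the free RNA assumed, and which assumption holds was not tested.

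**Figure D3:**
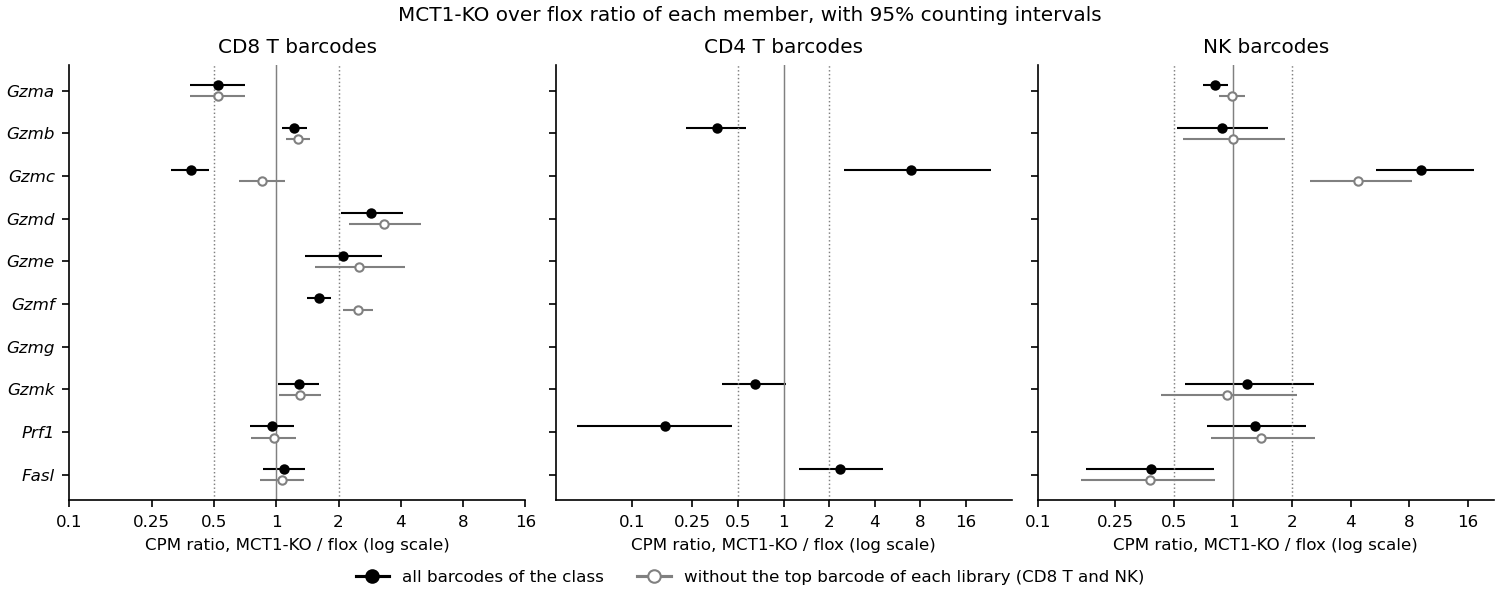
Ratio of CPM in MCT1-KO over flox (log scale) for each member with at least 3 UMIs in both libraries, in CD8 T, CD4 T and NK barcodes, with 95% counting intervals; open points leave out the barcode richest in member UMIs in each library (CD8 T and NK only), and dotted lines mark 2-fold. In CD8 T the Gzmc ratio moves from 0.39 to 0.85 without that barcode, and in CD4 T Gzmb (0.36) and Prf1 (0.16) lie below 1.

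**Figure D4:**
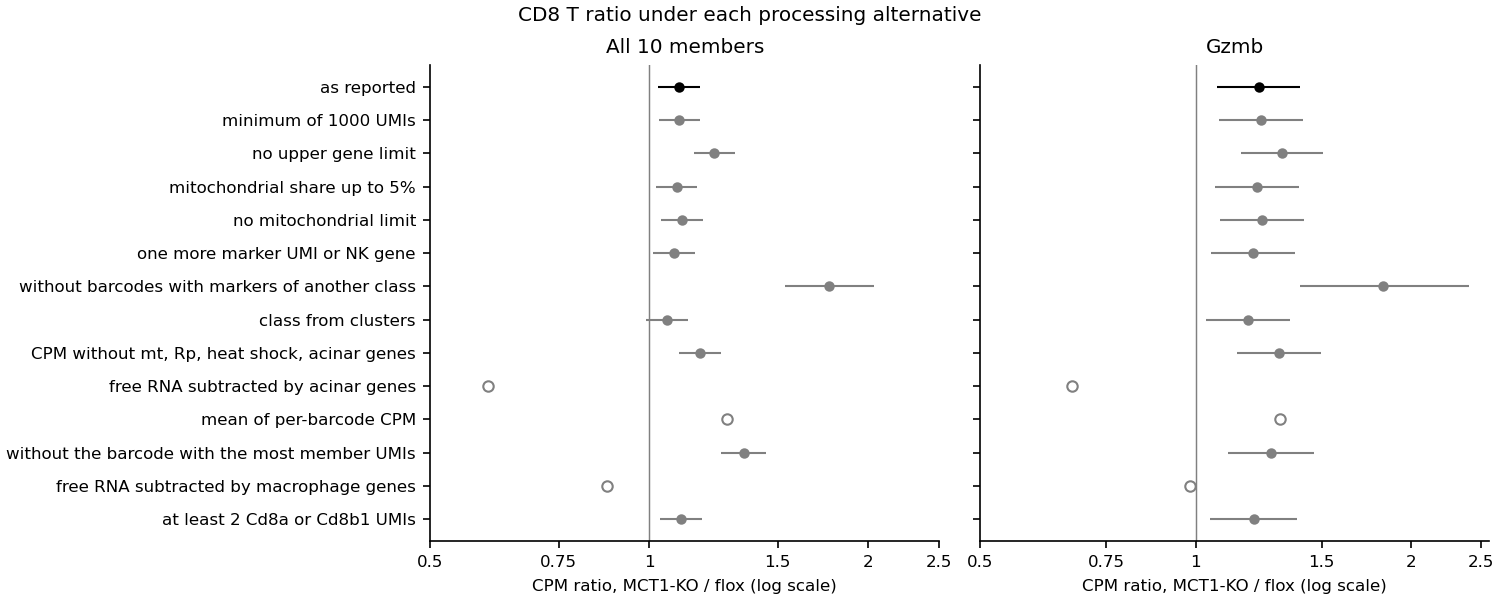
CD8 T ratio of CPM in MCT1-KO over flox (log scale) for all 10 members summed and for Gzmb, as reported (black) and under each processing alternative (grey), with 95% counting intervals where counts allow one; open points have no interval. The alternatives lie above 1 except those that subtract free RNA (0.60 and 0.87 for the sum, 0.67 and 0.98 for Gzmb).

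Shares of barcodes depend on depth, which was higher in flox. With each CD8 T barcode thinned to 1000 UMIs, which left out 5 and 7 shallower ones, Gzmb was found in 14.8% (11.2 to 19.0) of flox and 22.1% (16.8 to 28.2) of MCT1-KO barcodes. The Gzmf shares were 2.07% (0.84 to 4.22) and 7.37% (4.27 to 11.7), and thinned to 500 UMIs 1.75% (0.64 to 3.77) and 4.91% (2.48 to 8.62). For Gzmk (10.9% and 12.0%), Prf1 (8.88% and 11.5%) and Fasl (11.8% and 14.7%) the intervals overlapped, as they did for Gzmb. They also overlapped for Gzma (2.96% and 5.07%) and Gzmc (1.78% and 2.30%), whose CPM had the other order. No thinned macrophage barcode held a Gzmb UMI (0 of 2209 and 0 of 1918, which by the same 3 counts allows up to 0.136% and 0.156%). Any member was found in 40.5% (35.3 to 46.0) of flox and 52.5% (45.7 to 59.3) of MCT1-KO CD8 T barcodes after thinning. Each share came from 1 random draw, which its interval does not cover. In another draw to 1000 UMIs, made apart for barcodes with and without a UMI of Pdcd1 (PD-1), any member was found in 45.7% and 37.0% of flox barcodes. In MCT1-KO these shares were 49.6% and 49.0%. For Gzmb the same draw gave 18.7% and 15.7% in flox and 18.8% and 23.0% in MCT1-KO.

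**Figure D5:**
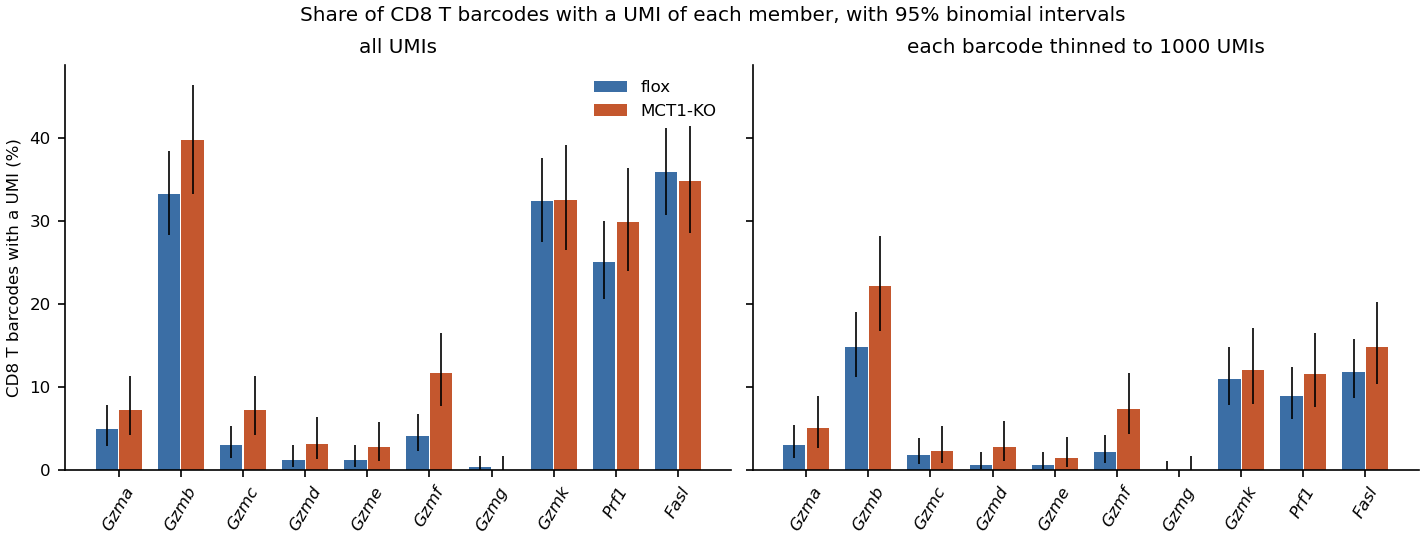
Share of CD8 T barcodes (%) with a UMI of each member in flox (blue) and MCT1-KO (orange), with all UMIs (left) and with each barcode thinned to 1000 UMIs (right); lines are 95% binomial (Clopper-Pearson) intervals. Gzmb stood at 33.2% and 39.7% with all UMIs and at 14.8% and 22.1% thinned, and Gzmf at 2.07% and 7.37% thinned.

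At least 1 UMI of Gzmc, Gzmd, Gzme, Gzmf or Gzmg was present in 21 of 343 flox (6.12%) and 34 of 224 MCT1-KO CD8 T barcodes (15.2%). Their level moved less than their share: 626 CPM (588 to 666) against 709 CPM (658 to 762), with up to 523 UMIs in 1 flox barcode. Without the richest barcode of each library the level was 305 against 598 CPM, a ratio of 1.96 (1.74 to 2.22). These barcodes were deep, with medians of 7639 and 5626 UMIs. Of them, 20 of 21 in flox and 23 of 34 in MCT1-KO held a UMI of the 8 macrophage, B cell or fibroblast genes, against 68.9% and 37.4% of the CD8 T barcodes without late granzymes. Leaving those out left 6 flox and 188 MCT1-KO UMIs of the 5 genes. The part of doublets and free RNA in this was not tested.

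In the few CD4 T barcodes the members went both ways, and their sum was 538 against 609 CPM. Gzmb stood at 251 CPM (208 to 301) in flox and 91.2 CPM (59.0 to 135) in MCT1-KO, a ratio of 0.36 (0.23 to 0.56), and was found in 26 of 68 against 11 of 69 barcodes. Thinned to 1000 UMIs it was found in 10 of 68 against 7 of 68 (14.7%, 7.28 to 25.4, and 10.3%, 4.24 to 20.1), and thinned to 500 in 2 of 68 against 3 of 69, with intervals that overlap at both depths. Prf1 had 42 against 4 UMIs (ratio 0.16, 0.043 to 0.45), and Fasl 19 against 26 UMIs (2.36, 1.26 to 4.52). Gzmf had 0 UMIs in flox and 51 in MCT1-KO, of which 49 came from 1 barcode. It reached 50 UMIs through MCT1-KO alone and is not counted here as a call. Gzmb, 2-fold or more lower, reached 50 UMIs through flox alone and is not counted as a call either. Gzmk (0.64, 0.39 to 1.04), the other member with at least 50 UMIs, was not past 2-fold. Of 2388 genes so counted, 4.31% were higher and 5.99% lower. The flox CD4 T barcodes were deeper (medians of 5465 and 2668 UMIs), and 83.8% of them held a macrophage UMI against 37.7% in MCT1-KO. The CPM ratio of Gzmb was below 1 under all 11 alternatives run, from 0.18 to 0.49.

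Among NK barcodes Gzmc differed most, with 14 UMIs in flox and 209 in MCT1-KO. It was found in 2 of 21 and 12 of 29 barcodes, at 169 CPM (92.6 to 284) in flox and at 1561 CPM (1357 to 1788) in MCT1-KO. The ratio was 9.22 (5.37 to 17.1). In MCT1-KO 111 UMIs came from 1 barcode, and without the richest barcode of each library the ratio was 4.37 (2.48 to 8.29). It was above 1 under the 11 alternatives run. With 1 more NK gene required it was 79.5 (14.1 to 3154). The flox count there lay under the floor of 3 UMIs, so the size of that ratio is uncertain. Without barcodes holding foreign markers, where flox had 0 UMIs, the ratio was at least 27.0 with 3 UMIs as the floor. Gzmc was the 1 of 4 members with enough UMIs whose ratio was past 2-fold. It had enough UMIs through MCT1-KO alone and is not counted here as a call. Of all 548 genes with enough UMIs, 5.29% were higher and 4.38% lower. Gzma had a ratio of 0.81 (0.70 to 0.94), but without an upper limit on genes per barcode it was 1.51, with 1 more NK gene required 0.52 (0.44 to 0.61), without barcodes holding foreign markers 1.16, and without the richest barcode of each library 0.99. Fasl had 21 against 13 UMIs (0.38, 0.18 to 0.80), and the intervals of Gzmb, Gzmk and Prf1 spanned 1. The MCT1-KO NK barcodes held 454 macrophage marker UMIs (3391 CPM) and those of flox 29 (351 CPM), although a macrophage UMI was found in 81.0% of flox (median 1) and 48.3% of MCT1-KO NK barcodes (median 0).

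Co-detection showed which members shared barcodes. Over the 567 CD8 T barcodes of both libraries, all 26 with a Gzmc UMI and all 10 with a Gzme UMI also held Gzmb, as did 10 of 11 with Gzmd and 30 of 40 with Gzmf. Gzmb itself was present in 203 of 567. Gzmd and Gzme shared 9 barcodes, of 11 and 10 positive, and the same number was shared by Gzme and Gzmf. Of 33 Gzma barcodes, 24 held Gzmb (72.7%) and 19 held Gzmk, while 2 held Gzmc, 2 held Gzmf and none held Gzmd or Gzme. Deeper barcodes show more genes of any kind, so these counts are a description.

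Within the CD8 T barcodes, those with a late granzyme UMI also had more Gzmb and Prf1 than those without one or Gzmk. Gzmb stood at 1020 CPM (877 to 1179) in flox and 786 CPM (676 to 909) in MCT1-KO there, against 179 and 250 CPM in barcodes with neither a late granzyme nor Gzmk. Prf1 stood at 347 and 172 CPM against 72.7 and 82.8 CPM, and 35 of its 62 flox UMIs there came from 1 barcode. Fasl did not follow, with 84.1 and 103 CPM against 102 and 108 CPM. Tcf7, a transcription factor of less differentiated T cells, stood at 28.0 CPM (9.10 to 65.4) in the late granzyme barcodes of flox against 26.0 CPM in those with neither, and in MCT1-KO at 0 UMIs (up to 15.8 CPM) against 13.8 CPM, so no difference was detectable at this depth.

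Cycling CD8 T barcodes, with at least 2 UMIs of Mki67, Top2a, Cdk1 and Birc5, numbered 66 and 42. Gzmc to Gzmg together were 11.5-fold (9.40 to 14.2) and 2.54-fold (2.14 to 3.02) above the barcodes with no cycling UMI, and 4.28-fold and 1.82-fold without the richest barcode of each library. Gzmc, Gzmd, Gzme and Gzmf were each at least 2-fold higher in both libraries, against 2.77% of 5561 genes higher and 1.69% lower. These genes share barcodes, so their calls are not separate observations. The calls also include the richest barcode, a cycling one in both libraries, and were not repeated without it. A late granzyme UMI was found in 7 of 66 against 12 of 215 flox barcodes and in 12 of 42 against 17 of 140 in MCT1-KO. The cycling barcodes were deeper (medians of 8051 and 7230 UMIs against 3003 and 2666). Fasl was lower in the cycling barcodes of both libraries, at ratios of 0.50 (0.34 to 0.74) and 0.58 (0.37 to 0.89). No member was past 2-fold in the same direction in both libraries between CD8 T barcodes with and without Pdcd1, which encodes PD-1, against 0.518% of genes higher and 0.421% lower.

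Genes that store, release, inhibit or answer the members were followed as 48 genes in 6 lists. In CD8 T barcodes 40 of the 48 had at least 50 UMIs, of which 2 were at least 2-fold higher in MCT1-KO and 5 at least 2-fold lower, with a median ratio of 0.88. These counts include Serpinb9b, Tnfsf10 and Prdm1, which had enough UMIs only through the library where they were higher. Those genes are not counted here as calls. Over all genes in these barcodes 1.43% were higher and 3.61% lower, with a median of 0.98. Both that were higher were serpins, intracellular protease inhibitors: Serpinb9b was at 8.67 against 53.2 CPM (ratio 6.13, 3.36 to 11.9) and Serpinb6b at 102 against 242 CPM (2.36, 1.93 to 2.90). Serpinb9b had enough UMIs through MCT1-KO alone. Serpinb9, the inhibitor of granzyme B, was 144 against 274 CPM (1.90, 1.59 to 2.26). The 5 granzyme inhibitors tested had a median ratio of 1.90.

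Of the 8 genes of granule storage and granzyme activation with enough UMIs, 2 were at least 2-fold lower and none higher. Ctsc, which encodes cathepsin C, the protease that activates granzymes by removing a dipeptide, was 247 against 110 CPM (ratio 0.45, 0.36 to 0.55). Cst7, a cystatin that inhibits cathepsins in these granules, was 168 against 83.2 CPM (0.50, 0.38 to 0.63). Nkg7, a granule membrane protein, was 2304 against 1453 CPM (0.63, 0.59 to 0.67), and Srgn, the proteoglycan that packs granzymes, 1384 against 1291 CPM (0.93, 0.87 to 1.00). The 8 genes had a median ratio of 0.65. Ctsc was also a macrophage gene here, at 981 and 781 CPM in the macrophage clusters, and macrophage UMIs were more frequent in flox CD8 T barcodes. Their part in the Ctsc difference was not tested. Cst7 stood at 2.12 and 2.53 CPM in the macrophage clusters. Among 7 genes of granule exocytosis none was past 2-fold, with Rab27a at 1.05 (0.80 to 1.38) and a median of 1.02, and none of the 8 genes of target-cell death was.

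Of 5 other effector ligands and cytokines with enough UMIs, Ifng and Tnfsf10 were at least 2-fold lower in MCT1-KO CD8 T barcodes. Ifng, the cytokine interferon gamma, was 486 CPM (452 to 521) in flox and 82.2 CPM (65.6 to 102) in MCT1-KO, a ratio of 0.17 (0.13 to 0.21). In the macrophage clusters Ifng had 9 UMIs in flox and 0 in MCT1-KO. The heat shock genes moved with the genotype in the same barcodes, and their part in these differences was not tested. Tnfsf10, which encodes the death ligand TRAIL, was at 0.27 (0.15 to 0.46) and had enough UMIs through flox alone. Prdm1, the transcription factor Blimp-1, was at 0.31 (0.15 to 0.60), with 55 against 11 UMIs. It was the 1 of 7 effector transcription factors past 2-fold, but had enough UMIs through flox alone. In CD4 T barcodes 28 of the 48 genes had enough UMIs. Of these Serpinb9 (2.02) and Serpina3g (2.45) were higher, and the genes that were lower included Ctsh, Xcl1 and Eomes, against 4.31% of all genes higher and 5.99% lower. In NK barcodes 9 had enough UMIs, with Ctsl higher (6.38, from 6 and 62 UMIs) and Ccl5 lower (0.36). Ctsl had enough UMIs through MCT1-KO alone and is not counted here as a call. Of all genes 5.29% were higher and 4.38% lower. Ctsl stood at 512 and 844 CPM in the macrophage clusters.

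The genes whose levels followed single members most closely were sought over 23 groups of barcodes, among 5722 genes. Each group was 1 class of 1 library with at least 50 barcodes. The NK barcodes (21 and 29) were too few to enter, so the partners of Gzma were found without them. The groups share 2 libraries, and most lie near 0 for the members, so the coefficients are a description. Gzmb was closest to Klrc1 (Pearson r = 0.981), Prf1 (0.980) and Ms4a4b (0.980), and Prf1 to Gzmb (0.980), Tcrg-C2 (0.976) and Ms4a4b (0.975). Gzmk followed Zap70 (0.976), Trac (0.962) and Cd96 (0.955). Gzmd and Gzmf were closest to each other (0.985), and the next for both were Crtam (0.791 and 0.802) and Wdr95 (0.787 and 0.801). Gzma (Nmnat2 at 0.911, Lef1 at 0.873, Txk at 0.864) and Gzmc (2510002D24Rik at 0.846, Fam102a at 0.841, S1pr4 at 0.837) had weaker partners.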

How the data were processed

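Single-cell RNA was counted in 1 flox and 1 MCT1-KO library (177334432 and 151118092 UMIs over all barcodes), grouped by the genotype label. The deposited matrices hold whole UMI counts per gene and barcode, which the authors made with Fastp and SeekOneTools. The submitters' processing notes name Seurat 4.0.0 and GRCh38, but the gene identifiers are of mouse and which build was used is unclear. The labels name a SeekOne MM 3' kit, and the methods the Chromium platform or a SeekOne DD kit.

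The members, lists and class rules were chosen with earlier results of these data known, and the NK genes Klra4 and Adamts14 were dropped after they were seen in many barcodes without T or NK markers. Summed UMIs per class were given as CPM with exact Poisson intervals, ratios with conditional exact intervals and shares with Clopper-Pearson intervals (SciPy 1.17.1). They were run on data simulated from the same Poisson and binomial models. Such data lack UMIs gathered in few barcodes, so the run cannot show how the intervals hold for those. A gene was called past 2-fold when it had at least 50 UMIs over both libraries in the class. Named were the 10 members, the listed pathway genes past 2-fold and the 3 genes with the highest Pearson r on log2(CPM + 10) to each member with at least 100 UMIs; the other pathway genes were named after their values were seen. A few of these genes are not reported here. Other classes came from 24 Leiden clusters (scanpy 1.11.5), of which 8 stayed unnamed. Barcodes of 10 to 100 UMIs served as free RNA. Sequences were read from RefSeq and GENCODE tables and aligned with Biopython 1.88. Alternatives changed the filters, class rules, scaling, free RNA and thinning.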

Additional observations from a re-analysis of the deposited data

Results flagged for a closer look

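Barcodes of 10 to 100 UMIs, which served only as the free RNA profile, held the late granzymes at unequal levels. Gzmd had 26 UMIs in flox and 121 in MCT1-KO there, 0.835 against 4.78 CPM, a ratio of 5.73 (3.73 to 9.12). Gzme had 19 and 35 UMIs, a ratio of 2.27 (1.26 to 4.20). Both were picked out because their level outside the kept barcodes was at least 2-fold higher in MCT1-KO than in flox, as was that of 2.0% of the 12925 genes with at least 50 UMIs there (3.35% were 2-fold or more lower). Gzmc had 155 and 212 UMIs (1.68, 1.36 to 2.08). Gzmf had 94 and 54 UMIs there (0.71, 0.50 to 1.00) and Gzmb 268 and 145 (0.67, 0.54 to 0.82). Of the Gzme UMIs of the flox library, 50 of 122 lay in barcodes with at least 500 UMIs that failed the gene or mitochondrial limit.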

How the results depend on the processing

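No paired analysis was possible because each genotype had 1 library. Under 13 alternatives the CD8 T ratio of Gzmd (1.57 to 4.74, and at least 4.21 where flox had 0 UMIs) and Gzme (1.15 to 3.28, and there at least 3.37) stayed above 1 and that of Gzma (0.29 to 0.58) below 1. The richest CD8 T barcodes that were left out held no Gzma UMI, so leaving them out could not change the Gzma counts. No alternative was aimed at the barcodes richest in Gzma. The causes of the shifts that follow were not tested. After subtraction of free RNA set by acinar genes, the ratio was 0.63 for the members in T barcodes and 0.60 in CD8 T, and in CD8 T 0.67 for Gzmb, 0.88 for Gzmf and 0.71 for Gzmk. Subtracted by macrophage genes (added after seeing the data, and run for T and CD8 T only, since it took 98.0% of MCT1-KO NK UMIs as free), it was 0.73, 0.87 and, for Gzmb, 0.98. Without barcodes with markers of another class the ratios were 1.46 in T, 1.77 in CD8 T, 1.65 in NK, 1.83 for Gzmb, at least 15.1 for Gzmc in CD8 T (0 flox UMIs, 3 taken as the floor) and 1.16 for Gzma in NK, the share of member UMIs in T and NK was 78.0%, and the MCT1-KO Gzmb share 33.1%. Without an upper gene limit they were 1.12 in T, 1.23 in CD8 T, 2.07 in NK and 1.51 for Gzma in NK, and the T and NK share was 88.1%. With 1 more marker required the NK ratio was 0.77 and the T and NK share 88.9%, and with classes from clusters that share was 93.3%. CPM without mitochondrial, ribosomal, heat shock and acinar genes gave 1.17 in CD8 T. The mean of per-barcode CPM gave 1.13 in T and 1.28 in CD8 T. Without the richest barcode (added after seeing the data) they were 1.20 and 1.35. The Gzmb shares were 14.8% and 22.1% thinned to 1000 UMIs and 11.4% and 13.4% thinned to 500, each in 1 random draw. Depth limits what NK and CD4 T barcodes can show, and 1 library per genotype leaves differences between tumors, batches and genotypes impossible to tell apart.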
